A study of Mus musculus with 8 samples.

Results

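The genes described here are 10 transcription factor genes of myeloid and growth control: Cebpa, Cebpb, Cebpd and Cebpe of the C/EBP family, Sfpi1 (also called Spi1), which encodes PU.1, Gfi1, Klf4, Myb, Myc and Mycn. They were taken by symbol from the 20207 genes of the deposited RNA sequencing tables, and all 10 were found and passed the filter on low values (a total above 1 RPKM over the 8 libraries), as did 12561 genes in all. RPKM counts a gene's reads relative to its transcript length and to the mapped reads of the library, so levels can be compared between genes per length.

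Stem cells of the long-term (LT) and short-term (ST) kinds and KLS- progenitors were sorted from mouse bone marrow. KLS+ stands for cKit+Lineage-Sca-1+ and KLS- for the same cells without Sca-1. LT and ST cells were both KLS+ and negative for CD48 and CD135, and CD150 was present on LT and absent from ST cells. CML-affected mice carried Tal1-tTA and TRE-BCR-ABL1, a tetracycline-regulated pair in which the Tal1 promoter drives the transactivator in stem cells and withdrawal of doxycycline switches on the BCR-ABL1 oncogene. By the methods, healthy controls were littermates that carried Tal1-tTA alone. The LT-HSC libraries were labelled as 2 months (replicate 1) and 6 months (replicate 2), and the normal ST-HSC and KLS- libraries as 2 months. LT-CML stem cells gave 2 libraries (replicates 1 and 2), and ST-CML stem cells and CML KLS- progenitors gave 1 each, with no age in the labels. The labels name C57BL/6 for all mice, whereas the methods describe FVB/N transgenics, of ages below the 6 months of LT-HSC replicate 2, and age and replicate cannot be told apart in the LT-HSC pair. Nothing states that replicates came from separate mice, so the p-values measure the spread between these samples only.

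C/EBP factors are leucine zipper proteins that switch on granulocyte and monocyte genes as progenitors commit, and PU.1, an ETS factor, works with them and also acts in stem cells and lymphoid progenitors. Gfi1 is a zinc finger transcriptional repressor needed for neutrophil development and stem cell quiescence, Klf4 is a zinc finger factor of monocyte differentiation and cell cycle control, and Myb keeps progenitors proliferating. Myc and Mycn pair with Max on E-box sequences and drive genes of ribosome production, nucleotide synthesis and metabolism.

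The libraries held an estimated 17.8 to 23.9 M reads. Of the sorting markers, Slamf1 (CD150) lay between 10.7 and 35.5 RPKM in the LT libraries and at 2.87 or lower in the others. Ly6a (Sca-1) was 8.16 and 11.7 RPKM in KLS- cells and at least 72.4 RPKM in stem cells. Flt3 (CD135) reached 61.6 and 71.6 RPKM in the ST libraries although the gate was CD135-. It was 3.95 and 2.52 RPKM in LT-HSC and 11.9 and 19.2 RPKM in LT-CML replicates 1 and 2. Cd48, also gated out, was 10.45 and 5.17 RPKM in LT-HSC and 16.8 and 29.5 RPKM in LT-CML replicates 1 and 2. Normal and CML ST cells held 41.8 and 45.15 RPKM of Cd48. The summed level of 7 mature neutrophil markers was 505 and 4007 RPKM in LT-HSC replicates 1 and 2 and 15.8 in ST-HSCs, and it was 232, 1028 and 410 RPKM in LT-CML replicate 1, LT-CML replicate 2 and ST-CML cells and 121 and 622 RPKM in normal and CML KLS- cells. All 7 of these markers were above 0 in every library. In sorted bulk samples, fewer cells of a type and less RNA per cell cannot be told apart.

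Across the 8 libraries the 10 genes kept a broad order of level. Myc and Myb were the highest in every library, at 45.9 to 129.9 RPKM for Myc and 46.4 to 81.3 RPKM for Myb, and their order changed between libraries. Klf4, Cebpb and Mycn came next in 5 of the 6 stem cell libraries, and in ST-CML cells Sfpi1 (4.03 RPKM) stood above Klf4 (3.91 RPKM). Sfpi1 stayed between 1.95 and 4.25 RPKM. Cebpa, Cebpd, Cebpe and Gfi1 were each at 3.19 RPKM or lower in every stem cell library. The plot of RPKM by cell type for each gene shows 3 patterns: genes that were highest in KLS- progenitors, genes that were lowest there, and Klf4, which was lower in every CML library than in any normal one.

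**Figure D1:**
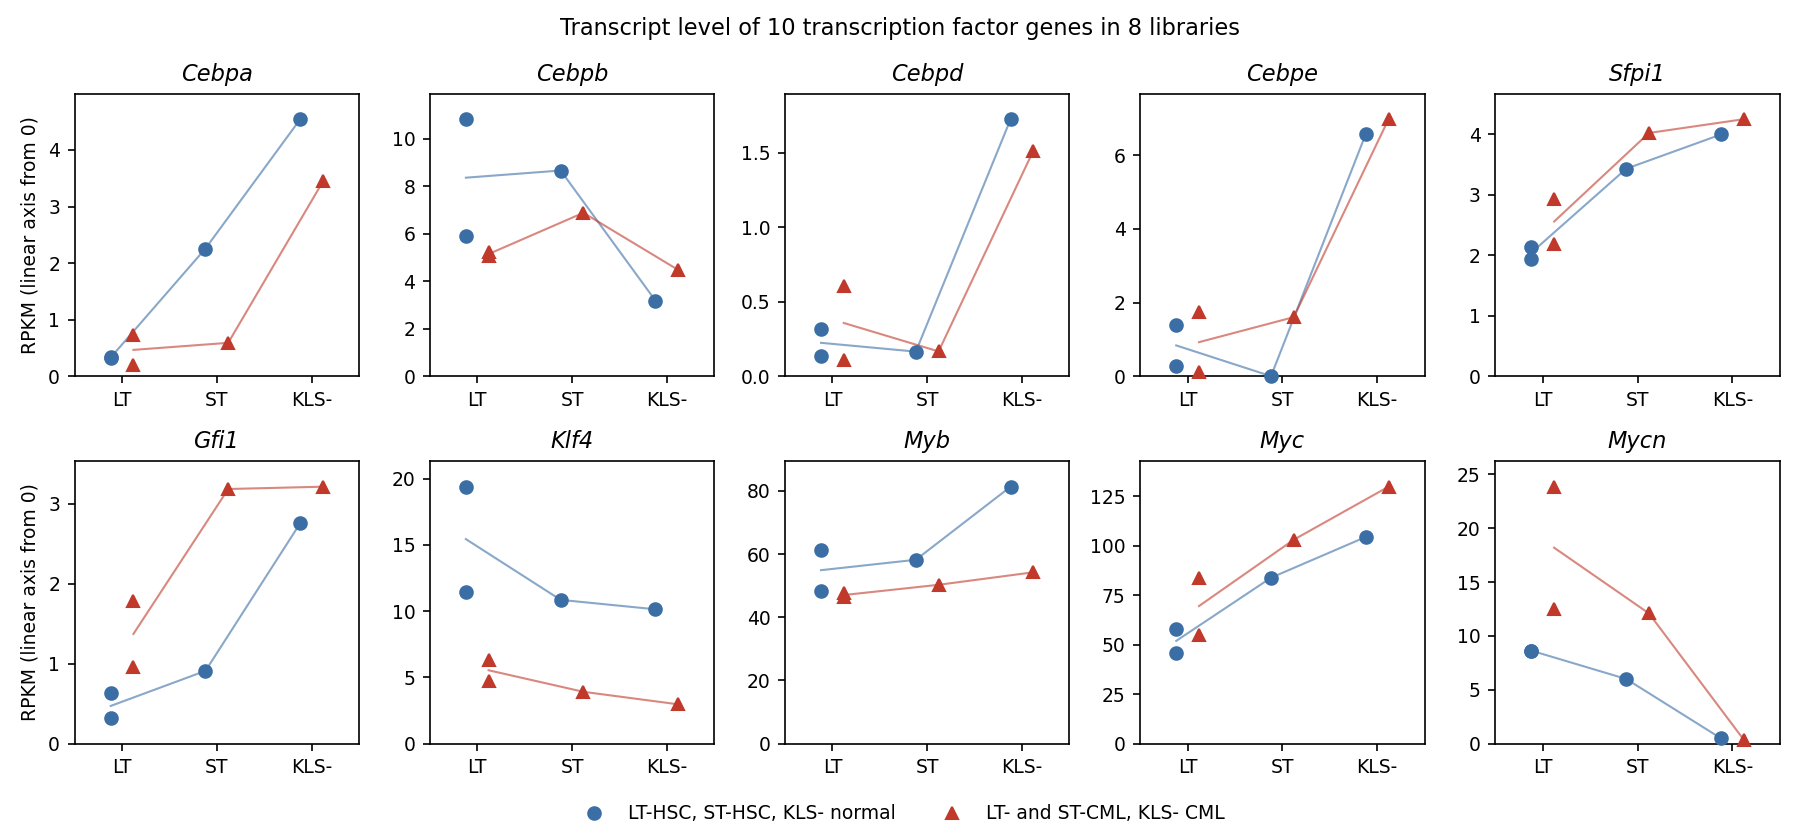
RPKM (linear axes from 0, a separate scale for each gene) of the 10 genes in LT, ST and KLS- cells, with blue circles for the normal and red triangles for the CML libraries and lines through the mean of each population. Klf4 was lower in every CML library than in any normal one, and Mycn fell from LT to KLS- cells while Myc lay highest in KLS- cells.

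The comparisons used limma on log2(RPKM + 1) with Benjamini-Hochberg adjustment over the 12561 genes, and a gene was called at an adjusted p under 0.05. Differences on this scale understate the change of genes near or below 1 RPKM. In CML stem cells against normal HSCs (3 libraries each, LT and ST pooled), 1 of the 10 genes was called, Klf4, against 2.34% of all genes tested, and 0 when any 1 of the 6 libraries was left out. In LT-CML stem cells against LT-HSCs, which share libraries with the pooled comparison, limma called 0 of 10 against 1.73% of all genes. An unadjusted p under 0.05 was found for 3 of the 10 (Klf4, Gfi1 and Mycn) and for 1452 of the 12561 genes. Between KLS- progenitors and the mean of LT and ST stem cells, with disease in the model, 8 of 10 were called against 48.7% of all genes. Fewer of the 10 were called without the normal KLS- library, which leaves 1 library of that cell type. The share of all genes called in that fit is not given here, so the drop is not read as particular to these genes. Of the 8 called with all libraries, 6 were higher in KLS- cells, where 22.2% of all genes were, and 2 were lower, where 26.5% were. Of all calls in that comparison 45.6% were higher in KLS- cells, and upper-quartile scaling, which moved the median of all genes from -0.08 to -0.21, changed this share to 31.8%. Between ST and LT stem cells limma called 0 of 10 against 4.87% of all genes. At an unadjusted p under 0.05 were 4 of the 10 (Sfpi1, Myc, Cebpa and Gfi1) and 2456 of the 12561 genes. Each of the 4 was higher in ST cells.

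**Figure D2:**
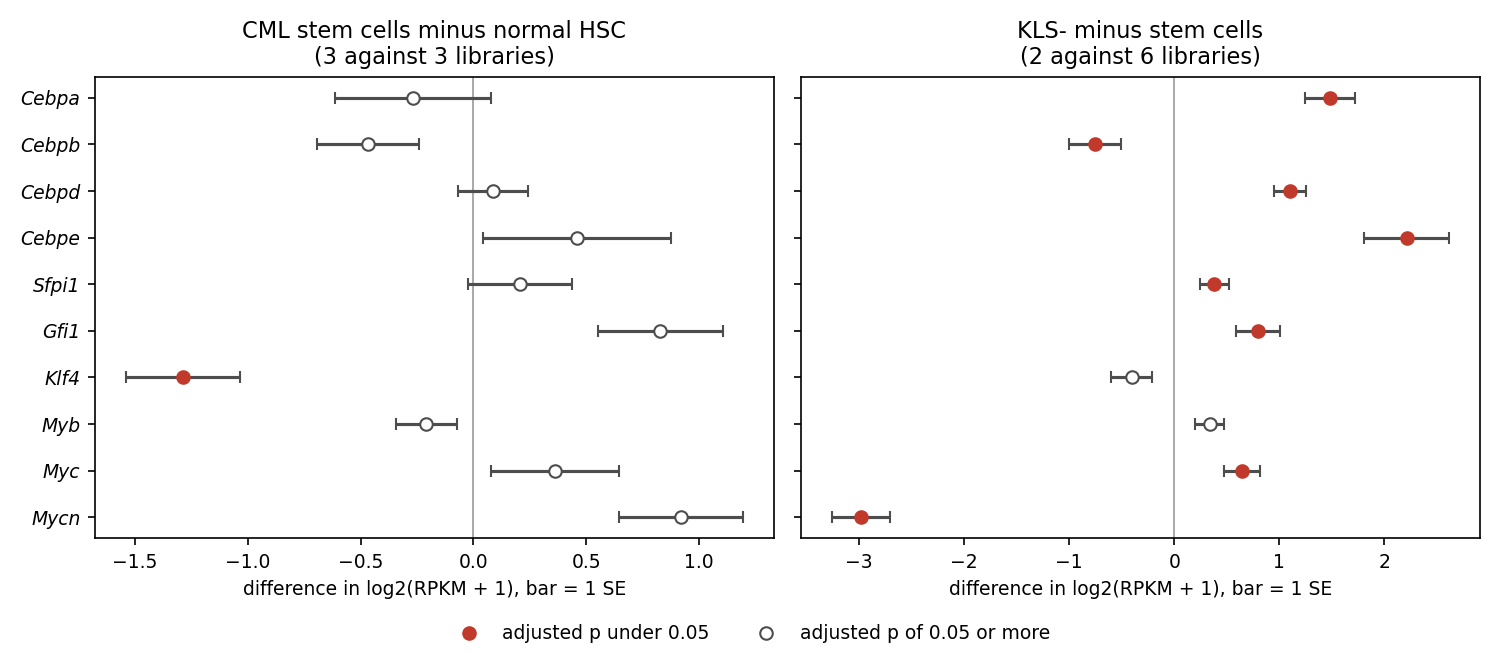
Difference in log2(RPKM + 1) for each gene, with 1 standard error as the bar, for CML stem cells minus normal HSCs (left) and KLS- progenitors minus stem cells (right). Filled points passed an adjusted p of 0.05 from limma: Klf4 on the left, and every gene but Klf4 and Myb on the right.

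Cebpa (mm9 chr7:35904312-35906945, plus strand, a single exon) encodes C/EBPalpha, which is needed for the step from common to granulocyte-monocyte progenitors. Its level was 0.342 and 0.317 RPKM in LT-HSC replicates 1 and 2, 2.26 RPKM in ST-HSCs and 4.54 RPKM in normal KLS- cells. The CML libraries held 0.201 and 0.728 RPKM in LT cells, 0.589 RPKM in ST cells and 3.44 RPKM in KLS- cells. Both KLS- libraries lay above all stem cell libraries, and the LT values rest on an estimated 11 to 35 reads, with a counting error of 16.9% to 30.2%. KLS- cells were higher than stem cells by 1.48 (SE 0.24, adjusted p = 0.0012 from limma), and the ratio of mean RPKM was 5.40. In normal cells the ST-HSC level was 6.85 times the LT-HSC mean, whereas in CML cells it was 1.27 times, and neither ST population had a replicate. The ST-CML level was 3.83-fold below that of ST-HSCs, by single libraries. Between CML stem cells and normal HSCs the difference was -0.27 (SE 0.35, adjusted p = 0.817 from limma), and without the ST-HSC library it was 0.16.

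The 250 bases before the Cebpa start site, from RefSeq on GRCm38.p6, are shown because Cebpa has a single exon and rose in KLS- cells. The stretch is chr7:35119043-35119292 on the plus strand, written 5′ to 3′, with capitals for a match to the MYB motif (AACNG, either strand) at positions -64 to -60 relative to the start and to the TATA box (TATAAA, gene strand only) at -30 to -25.
Cebpa: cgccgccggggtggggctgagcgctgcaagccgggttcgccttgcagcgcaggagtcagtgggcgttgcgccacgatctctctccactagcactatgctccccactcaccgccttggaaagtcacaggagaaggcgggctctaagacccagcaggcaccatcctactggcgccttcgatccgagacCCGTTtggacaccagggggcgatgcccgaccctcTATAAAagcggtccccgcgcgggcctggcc
Of 32851 promoter stretches of the same length, 74.2% held AACNG and 7.59% held TATAAA. The other letters searched on both strands were CACGTG for MYC-MAX, GAGGAA for PU.1 and TTGCNNAA for C/EBP, present in 6.02%, 23.3% and 9.56% of the stretches. None of these 3 was in this window. Of the 10 genes, 6 had entries in the promoter table, and Cebpd, Cebpe, Sfpi1 and Myc did not.

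Cebpe (mm9 chr14:55329200-55331011, minus strand) encodes C/EBPepsilon, which acts late in granulocyte development and switches on secondary granule genes. It was listed at 0 RPKM in ST-HSCs, where 3 reads would give 0.129 RPKM, and at 0.284 and 1.39 RPKM in LT-HSC replicates 1 and 2. In CML stem cells it was 0.117 and 1.73 RPKM in LT replicates 1 and 2 and 1.60 RPKM in ST cells. The KLS- libraries held 6.58 RPKM in normal and 6.98 RPKM in CML mice, both above all 6 stem cell libraries. The KLS- difference was 2.21 (SE 0.40, adjusted p = 0.0023 from limma), the largest rise among the 10 genes.

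Within LT cells the replicates of Cebpe lay further apart than the means of the disease states. The replicates differed from 7 to 41 estimated reads in LT-HSCs and from 3 to 39 in LT-CML cells, and the ST-CML library held 37 reads against 0 in ST-HSCs, at least 12.4-fold more. The difference between CML and normal stem cells was 0.46 (SE 0.42, adjusted p = 0.738 from limma). In each LT pair, the replicate with more Cebpe also had the higher summed level of mature neutrophil markers, and ST-HSCs, at 0 for Cebpe, had the lowest sum (15.8 RPKM). Normal KLS- cells held the second lowest sum, 121 RPKM, with a Cebpe level of 6.58 RPKM. Ela2, a C/EBP and PU.1 target, was 25.2, 125 and 9.72 RPKM in LT-HSC replicates 1 and 2 and ST-HSCs. In LT-CML replicates 1 and 2 and ST-CML cells it was 2.625, 1120 and 627 RPKM. Mpo, another such target, was 31.8, 69.9 and 95.5 RPKM in these normal and 5.20, 1291 and 830 RPKM in these CML libraries. Normal and CML KLS- cells held 3582 and 5672 RPKM of Ela2 and 7891 and 13120 RPKM of Mpo. These are 2 of 17 listed targets and were not chosen by adjusted p. Between CML and normal stem cells Ela2 and Mpo differed by 2.06 and 1.63 (adjusted p = 0.761 and 0.785 from limma). Of the 17 targets 0 were called in that comparison, and 10 had a difference above 0. The part of Ela2, Mpo and the neutrophil markers in the Cebpe or Gfi1 values was not tested. The paired bars of Cebpe and marker level show the libraries side by side.

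**Figure D3:**
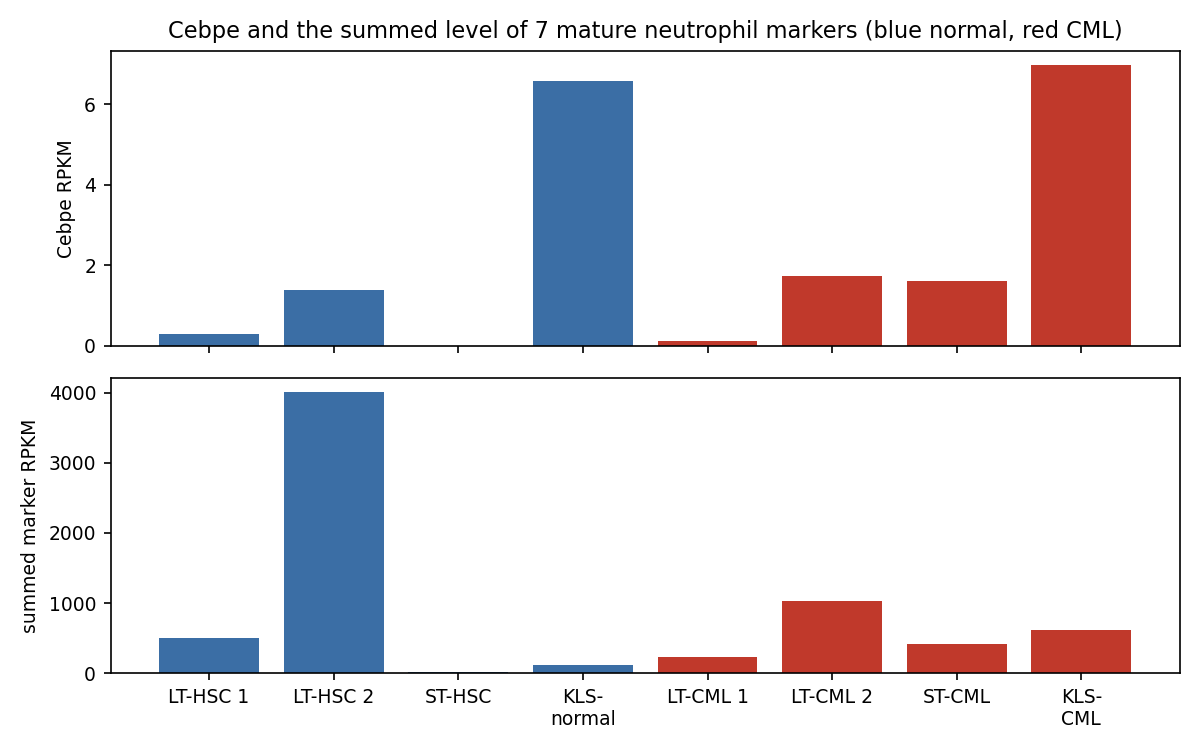
Cebpe in RPKM (top) and the summed RPKM of 7 mature neutrophil markers (bottom, S100a8, S100a9, Ltf, Camp, Ngp, Mmp8 and Retnlg) in each of the 8 libraries, normal in blue and CML in red, with bars from 0. Cebpe was highest in the KLS- libraries (6.58 and 6.98 RPKM), whereas the marker sum was highest in LT-HSC replicate 2 (4007 RPKM).

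Cebpd (mm9 chr16:15887379-15888559, plus strand) encodes C/EBPdelta, an inflammation-responsive member of the family. It was the lowest of the 10 genes over all libraries, with a mean under 1 RPKM. LT-HSC replicates 1 and 2 held 0.133 and 0.315 RPKM, ST-HSCs 0.165 RPKM and normal KLS- cells 1.73 RPKM. The CML values were 0.107 and 0.608 RPKM in LT cells, 0.166 RPKM in ST cells and 1.51 RPKM in KLS- cells. The stem cell values correspond to 5 to 25 reads, and both KLS- libraries (79 and 61 reads) lay above them. KLS- cells were higher by 1.1 (SE 0.15, adjusted p = 0.00062 from limma), a ratio of 6.51. CML and normal stem cells differed by 0.09 (SE 0.15, adjusted p = 0.874 from limma).

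Cebpb (mm9 chr2:167514415-167515918, plus strand, a single exon) encodes C/EBPbeta, which is used in emergency granulopoiesis and in macrophages, and it ran opposite to the other C/EBP genes. Its level was 5.90 and 10.8 RPKM in LT-HSC replicates 1 and 2, 8.67 RPKM in ST-HSCs and 3.18 RPKM in normal KLS- cells. In CML it was 5.07 and 5.22 RPKM in LT cells, 6.89 RPKM in ST cells and 4.48 RPKM in KLS- cells. Both KLS- libraries lay below every stem cell library. The KLS- difference was -0.75 (SE 0.25, adjusted p = 0.032 from limma), and the call was lost without the normal KLS- library (-0.32, adjusted p = 0.438), the ST-HSC library (adjusted p = 0.0738) or the ST-CML library (adjusted p = 0.0718). It was also lost under quantile normalization (adjusted p = 0.0978), with no filter on low values (0.141) and without a disease term (0.0546). Without the CML KLS- library the difference was -1.18. The ratio of Cebpa to Cebpb was 0.029 to 0.260 in stem cells and 1.43 and 0.769 in normal and CML KLS- cells.

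The CML level of Cebpb was 0.615 of the LT-HSC mean in LT cells and 0.794 of the ST-HSC level in ST cells, and the groups overlapped. The pooled difference was -0.47 (SE 0.23, adjusted p = 0.462 from limma). In KLS- cells the CML library stood above the normal one, with a ratio of 1.41. The disease difference in KLS- cells minus that in stem cells was 0.86 (SE 0.42, adjusted p = 1.0 from limma), and limma called 0 of the 10 genes in that test against 0.0717% of all genes, with Mycn at an unadjusted p under 0.05. Cebpb was highest in LT-HSC replicate 2, the library with the highest neutrophil marker sum, and the part of those markers was not tested.

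Sfpi1 (mm9 chr2:90922547-90955913, plus strand) encodes PU.1 and varied over a narrow range. It was 2.14 and 1.95 RPKM in LT-HSC replicates 1 and 2, 3.43 RPKM in ST-HSCs and 4.0 RPKM in normal KLS- cells. The CML libraries held 2.94 and 2.18 RPKM in LT cells, 4.03 RPKM in ST cells and 4.25 RPKM in KLS- cells. Each ST library was above every LT library, and the ST-CML library lay just above normal KLS- cells, so the KLS- and stem ranges overlapped. The KLS- difference was 0.38 (SE 0.14, adjusted p = 0.0458 from limma), and the call was kept only when LT-CML replicate 1 was the library left out (adjusted p of 0.0573 to 0.282 without each of the others). It was also lost under upper-quartile scaling (0.20, adjusted p = 0.247), with no filter on low values (adjusted p = 0.0619) and without a disease term (adjusted p = 0.0796). The ST difference from LT cells was 0.52 (SE 0.14, adjusted p = 0.0787 from limma). CML and normal stem cells differed by 0.21 (SE 0.23, adjusted p = 0.785 from limma).

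Gfi1 (mm9 chr5:108145674-108155056, minus strand) encodes a repressor that neutrophil precursors need, and its mean was higher in CML than in normal cells of each cell type. It was 0.315 and 0.629 RPKM in LT-HSC replicates 1 and 2, 0.911 RPKM in ST-HSCs and 2.76 RPKM in normal KLS- cells. In CML it was 0.962 and 1.78 RPKM in LT cells, 3.19 RPKM in ST cells and 3.22 RPKM in KLS- cells. All 3 CML stem cell libraries (57 to 170 reads) lay above all 3 normal ones (18 to 49 reads). The ST-CML level was close to that of CML KLS- cells, whereas ST-HSCs, at 0.911 RPKM, were below normal KLS- cells.

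The mean of CML stem cells was 3.20 times that of normal HSCs, and the difference was 0.83 (SE 0.28, adjusted p = 0.252 from limma). With a cell type term (LT or ST) in the fit the same difference had an adjusted p of 0.0432 in limma. An exact permutation test of 3 against 3 libraries gave p = 0.1 (two-sided), the smallest p that design allows. Groups that do not overlap were found for 3 of the 10 genes (Gfi1, Klf4 and Mycn) and for 18.3% of all genes tested. In KLS- cells the CML to normal ratio of Gfi1 was 1.17, and the test of the disease difference between KLS- and stem cells gave -0.66 (SE 0.37, adjusted p = 1.0 from limma). KLS- cells were above stem cells by 0.80 (SE 0.21, adjusted p = 0.013 from limma), with the ST-CML library inside their range. Without the normal KLS- library this difference was 0.47 (adjusted p = 0.209), and its adjusted p was 0.0577 under upper-quartile scaling, 0.0796 with no filter on low values and 0.0914 without a disease term.

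Klf4 (mm9 chr4:55540013-55545347, minus strand) encodes a factor of monocyte differentiation and was the gene called between CML and normal stem cells. LT-HSC replicates 1 and 2 held 11.5 and 19.4 RPKM, ST-HSCs 10.8 RPKM and normal KLS- cells 10.1 RPKM. LT-CML replicates 1 and 2 held 4.75 and 6.33 RPKM, ST-CML cells 3.91 RPKM and CML KLS- cells 2.97 RPKM. All 4 CML libraries were below all 4 normal libraries, and the highest CML value was 6.33 RPKM against a lowest normal value of 10.1 RPKM. The lowest of these values rests on about 162 reads, with a counting error of 7.86%.

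The CML mean of Klf4 was 2.78-fold below the normal mean in stem cells, 2.79-fold in LT cells, 2.77-fold in ST cells and 3.42-fold in KLS- cells. In the pooled stem cell comparison the difference was -1.29 (SE 0.25, adjusted p = 0.0466 from limma), and in LT cells alone it was -1.30 (SE 0.28, adjusted p = 0.0783). The exact permutation test over 3 against 3 libraries gave p = 0.1, the smallest possible. The call was lost when any 1 of the 6 stem libraries was left out (differences of -1.04 to -1.44, adjusted p from 0.0515 to 0.172 in limma), and under quantile normalization (adjusted p = 0.0888), upper-quartile scaling (0.0931) or no filter on low values (0.199). The call was kept with 0.1 or 0.5 added to RPKM in place of 1, without the intensity trend and at a mean of at least 1 RPKM. The adjusted p was 0.0415 to 0.0469 in limma under these settings. With a cell type term in the fit it was 0.0119, and with all 8 libraries 0.0024. The Klf4 value was lower in CML under each of the settings named. The Klf4 level was highest in LT-HSC replicate 2, the library with the highest neutrophil marker sum, and without it the difference was -1.04 (adjusted p = 0.085). KLS- and stem cells differed by -0.41 (SE 0.20, adjusted p = 0.119), or an adjusted p of 0.0408 without LT-HSC replicate 1. Among the macrophage markers Cd14, a monocyte receptor for bacterial lipopolysaccharide, rose in the same stem cell comparison by 2.35 (SE 0.42, adjusted p = 0.033 from limma), from 1.0, 4.14 and 1.35 RPKM in LT-HSC replicates 1 and 2 and ST-HSCs to 8.07, 16.3 and 19.3 RPKM in LT-CML replicates 1 and 2 and ST-CML cells. Of that list Cd14 was the only gene called, of 4 tested, and the only one above 0. Emr1, C1qb and Csf1r had differences of -0.13, -0.11 and -0.19. The part of Cd14, or of the cells it marks, in the Klf4 values was not tested. The disease difference in KLS- cells minus that in stem cells was -0.20 (SE 0.41, adjusted p = 1.0 from limma).

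The Klf4 promoter stretch is shown because Klf4 was the called gene and because its window held the E-box letters CACGTG, which MYC-MAX dimers can bind and which 6.02% of stretches held. It lies at chr4:55532476-55532725 of GRCm38.p6 on the minus strand (RefSeq), written 5′ to 3′, with the match in capitals at positions -182 to -177 relative to the start site.
Klf4: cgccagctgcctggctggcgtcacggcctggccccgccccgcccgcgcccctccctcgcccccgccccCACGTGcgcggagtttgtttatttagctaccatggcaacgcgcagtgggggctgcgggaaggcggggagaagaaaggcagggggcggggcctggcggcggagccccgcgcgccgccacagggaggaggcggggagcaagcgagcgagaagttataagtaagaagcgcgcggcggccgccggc
Of its bases, 74.0% were G or C. The match is a description of the letters only.

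Myb (mm9 chr10:20844736-20880790, minus strand) was among the highest and least variable genes. It was 48.4 and 61.4 RPKM in LT-HSC replicates 1 and 2, 58.2 RPKM in ST-HSCs and 81.3 RPKM in normal KLS- cells. In CML it was 47.7 and 46.4 RPKM in LT cells, 50.3 RPKM in ST cells and 54.2 RPKM in KLS- cells. Normal KLS- cells held the highest value, and the 3 CML stem cell libraries lay within 46.4 to 50.3 RPKM, overlapping the lower LT-HSC replicate. CML and normal stem cells differed by -0.21 (SE 0.14, adjusted p = 0.614 from limma), and KLS- and stem cells by 0.34 (SE 0.14, adjusted p = 0.0727, or 0.0485 without LT-HSC replicate 2). Under quantile normalization the second difference was -0.05, so no direction is given for Myb in KLS- cells. The CML KLS- level was 0.667 of the normal KLS- level, with 1 library each.

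Myc and Mycn encode paralogous proteins that bind the same E-box letters, and their transcripts moved in opposite directions from stem to KLS- cells. Myc (mm9 chr15:61816946-61821929, plus strand) was 58.0 and 45.9 RPKM in LT-HSC replicates 1 and 2, 83.9 RPKM in ST-HSCs and 104.5 RPKM in normal KLS- cells. Its CML levels were 84.0 and 55.1 RPKM in LT cells, 103.1 RPKM in ST cells and 129.9 RPKM in KLS- cells. Within each disease state the order was LT, ST, KLS-, and both KLS- libraries were above all stem cell libraries by a small margin.

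The KLS- difference of Myc was 0.64 (SE 0.17, adjusted p = 0.0136 from limma), a ratio of 1.64, and under quantile normalization it was 0.17 (adjusted p = 0.344). Without the normal or the CML KLS- library its adjusted p was 0.107 or 0.0947, and with no filter on low values it was 0.0669. ST cells were above LT cells by 0.64 (SE 0.18, adjusted p = 0.0837 from limma), with an adjusted p of 0.0334 under quantile normalization, 0.037 under upper-quartile scaling and 0.0373 without LT-CML replicate 1. The CML to normal ratio of Myc was 1.34 in LT, 1.23 in ST and 1.24 in KLS- cells, and the stem cell groups overlapped. The pooled difference was 0.36 (SE 0.28, adjusted p = 0.686 from limma), and the LT-CML replicates alone differed by 84.0 to 55.1 RPKM.

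Mycn (mm9 chr12:12942902-12948720, minus strand) was 8.63 RPKM in both LT-HSC replicates, 6.00 RPKM in ST-HSCs and 0.494 RPKM in normal KLS- cells. In CML it was 23.9 and 12.5 RPKM in LT replicates 1 and 2, 12.1 RPKM in ST cells and 0.368 RPKM in KLS- cells. All 3 CML stem cell libraries lay above all 3 normal ones, and both KLS- libraries, with an estimated 33 and 22 reads, lay far below every stem cell library. The KLS- difference was -2.98 (SE 0.28, adjusted p = 9.06e-05 from limma), the largest difference and the smallest adjusted p of the 10 genes in any comparison. Stem cell levels were 15.7 times the KLS- level in normal mice and 43.9 times in CML mice. In both disease states LT cells were above ST cells, by 1.44 times in normal and 1.5 times in CML mice (difference -0.47, SE 0.29, adjusted p = 0.414 from limma).

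The CML mean of Mycn in stem cells was 2.08 times the normal mean, with a ratio of 2.11 in LT and 2.01 in ST cells. The difference was 0.92 (SE 0.27, adjusted p = 0.187 from limma), and 0.93 (SE 0.30, adjusted p = 0.251) in LT cells alone. Without LT-CML replicate 1 the LT difference was 0.49, and without LT-CML replicate 2 it was 1.37, while the pooled difference without LT-CML replicate 1 was 0.62. The exact permutation test gave p = 0.1, the smallest that 3 against 3 allows. In KLS- cells the CML level was 0.744 of the normal level, a log2 ratio of -0.43 between 2 single libraries whose counting errors were 21.5% and 17.4%.

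The Mycn promoter stretch is shown as that of the gene with the largest difference between cell types. It is chr12:12941837-12942086 of GRCm38.p6 on the minus strand (RefSeq), 5′ to 3′, with a match to the MYB motif in capitals at positions -36 to -32 relative to the start site. It held no match to the other letters searched.
Mycn: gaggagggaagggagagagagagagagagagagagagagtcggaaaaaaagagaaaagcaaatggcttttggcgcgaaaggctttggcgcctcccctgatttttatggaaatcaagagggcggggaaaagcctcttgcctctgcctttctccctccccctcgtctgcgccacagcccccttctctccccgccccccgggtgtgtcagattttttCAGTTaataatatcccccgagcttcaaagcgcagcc
Its share of G and C was 54.8%, against 74.0% in the Klf4 stretch and 66.4% in that of Cebpa.

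Added together, Myc and Mycn gave 66.6, 54.6, 89.9 and 105 RPKM in LT-HSC replicates 1 and 2, ST-HSCs and normal KLS- cells, and 107.8, 67.7, 115 and 130.3 RPKM in LT-CML replicates 1 and 2, ST-CML and CML KLS- cells. The ratio of Myc to Mycn was between 3.52 and 14.0 in the stem cell libraries and 211 and 353 in normal and CML KLS- cells. Mycn's share of the sum was highest in LT-CML replicate 1. The stacked bars of Myc and Mycn by library show this.

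**Figure D4:**
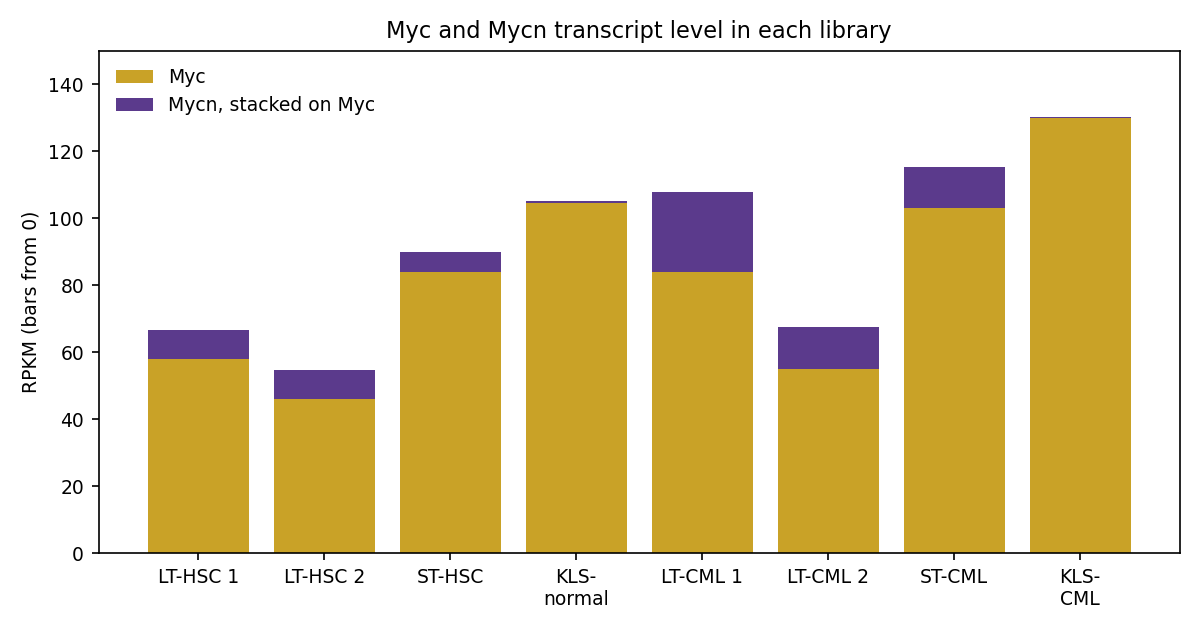
Myc RPKM with Mycn RPKM stacked on it (bars from 0) for each library. The total lay between 54.6 and 130.3 RPKM, and Mycn, up to 23.9 RPKM in stem cells, was 0.494 and 0.368 RPKM in the KLS- libraries.

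The other genes of these pathways were read from lists. Of 30 MYC target genes of ribosome production, translation and metabolism, 28 rose in KLS- cells and 1, Ccnd2, fell. Over all genes 22.2% rose and 26.5% fell. The list had a median difference of 0.87 against -0.08 over all genes tested. Tfrc, the transferrin receptor, rose by 2.19, Srm, spermidine synthase, by 1.66, Hspd1, a mitochondrial chaperone, by 1.45, and Pa2g4, a growth-linked ribosome factor, by 1.28. Ccnd2, cyclin D2, fell by 0.75 and was named after its value was seen. Under quantile normalization 20 of the 30 rose, with a median of 0.43 against 0.01. Without the CML KLS- library, which leaves 1 library of that cell type, the median was 0.83 against -0.08, and fewer of the 30 passed the test. Between ST and LT cells 2 of the 30 were called, Odc1 and Ldha, which fell by 0.74 and 0.62, against 4.87% of all genes called. The list's median was -0.25 against -0.01, while Myc itself was 0.64 higher in ST cells without passing the test. Between CML and normal stem cells limma called 0 of the 30, 0 had an unadjusted p under 0.05, and the median was -0.11 against -0.04. That median was -0.22 against -0.05 without LT-HSC replicate 2, with 2 of the 30 above 0. It was -0.02 against -0.01 under quantile and -0.03 against 0.02 under upper-quartile scaling.

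Of 17 target genes of C/EBP factors and PU.1, 10 rose in KLS- cells and 0 fell, where 22.2% and 26.5% of all genes did. The median of the list was 2.43 against -0.08 over all genes tested. Csf1r, the receptor for macrophage colony-stimulating factor, rose by 3.53, Ms4a3, a granulocyte-monocyte progenitor gene, by 5.44, Prtn3, a primary granule protease, by 2.77, and Ncf1, a subunit of the phagocyte oxidase, by 2.43. The secondary granule genes Ltf, Camp and Ngp, which the neutrophil marker list also holds, had differences of -1.59, -1.02 and -1.45 that did not pass the test. The median was 1.99 without the CML KLS- library and 2.45 without the normal KLS- library, against -0.08 and -0.06 over all genes. Each of these fits leaves 1 KLS- library, and fewer of the 17 passed the test. From LT to ST cells 2 of the 17 were called, against 4.87% of all genes. These were Csf3r and Itgam, which rose by 1.51 and 1.72. Between CML and normal stem cells limma called 0 of 17, with 1 gene at an unadjusted p under 0.05, as were 1573 of all 12561 genes. The median was 0.23 against -0.04 over all genes, or 1.04 against -0.05 without LT-HSC replicate 2. In LT cells alone the median was -0.07 against -0.01, with 7 of the 17 above 0.

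**Figure D5:**
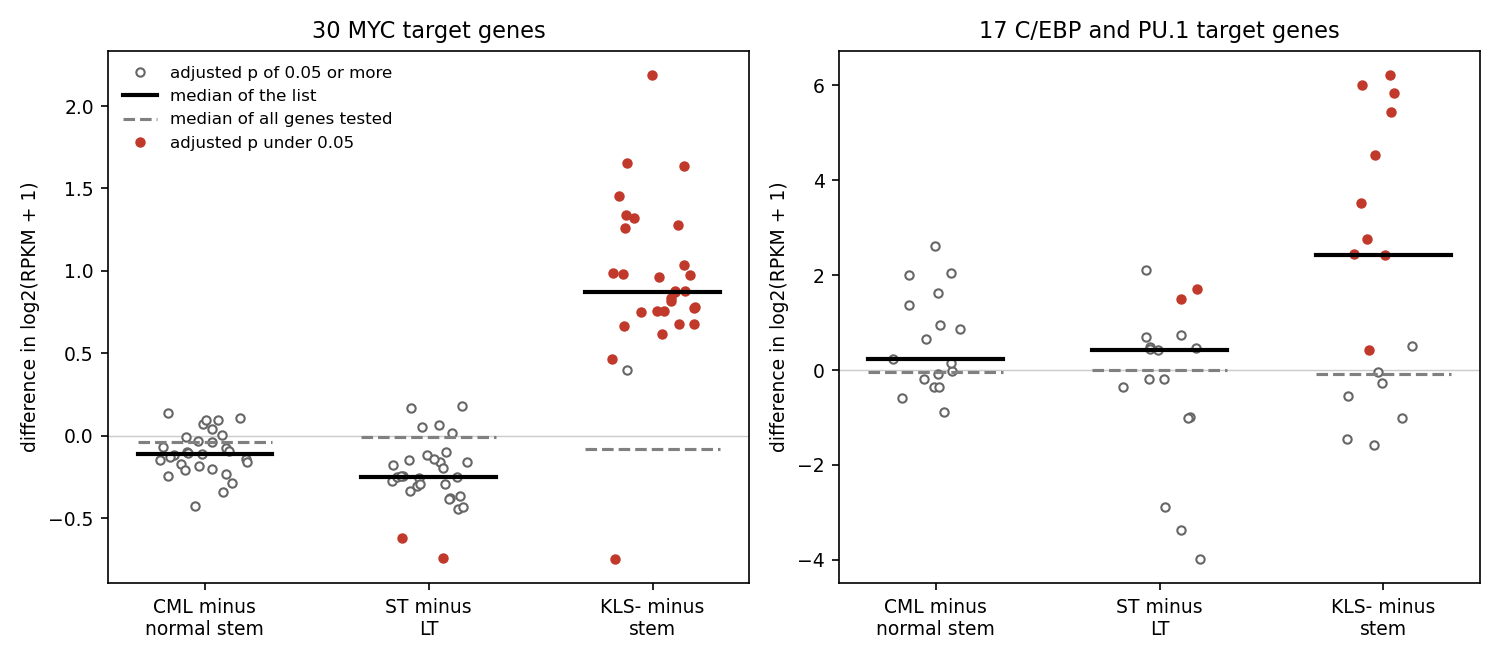
Difference in log2(RPKM + 1) of each of 30 MYC targets (left) and 17 C/EBP and PU.1 targets (right) in 3 comparisons, with filled points at an adjusted p under 0.05, black bars at the list's median and dashed bars at the median of all genes tested. The medians in KLS- minus stem cells were 0.87 and 2.43 against -0.08 over all genes.

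The summed level of 7 erythroid markers was 854 RPKM in normal and 1850 RPKM in CML KLS- cells against 28.5 to 115 RPKM in the stem cell libraries. A single gene, Car1 (carbonic anhydrase 1), made up 804.5 and 1775 RPKM of the KLS- sums, and without it the sum was 50.0 and 74.6 RPKM in KLS- cells and 6.91 to 88.4 RPKM in stem cells, so the ranges overlapped. Hba-a1 was listed at 0 in all libraries, and Hbb-b1 and Alas2 differed between KLS- and stem cells by -0.34 and -0.19 (adjusted p = 0.776 and 0.858 from limma). The sum of 5 macrophage markers, which include Csf1r, was 51.7 and 104 RPKM in KLS- cells, 2.34 to 5.66 RPKM in normal HSCs and 8.38 to 20.4 RPKM in CML stem cells. Without Cd14 the macrophage sum was 20.5 and 18.7 RPKM in KLS- cells, 1.34 to 1.52 RPKM in normal HSCs and 0.316 to 1.15 RPKM in CML stem cells. The sum of 3 basophil or mast cell markers was 95.0 and 79.4 RPKM in KLS- cells against 2.54 to 21.5 RPKM in stem cells. Megakaryocyte markers, mostly Pf4, were at 244 to 413 RPKM in LT cells and 82.4 or lower elsewhere. B lymphoid markers, mostly Cd79b, ranged from 30.9 to 54.1 RPKM, and T lymphoid markers (up to 2.95 RPKM) and endothelial or stromal markers (up to 0.242 RPKM) were low in all libraries. The part of these lineages in the KLS- values of the 10 genes was not tested.

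Among the other factors related to C/EBP, PU.1 and Gfi1 (14 tested of 16 named), 2 rose and 4 fell in KLS- cells, near the 48.7% of all genes called. Fewer fell without the normal or without the CML KLS- library, which leaves 1 library of that cell type. Irf8, a monocyte factor and partner of PU.1, rose by 3.71, and Trib2, a pseudokinase that promotes degradation of C/EBPalpha, by 1.36, while Spic, an ETS relative of PU.1, fell by 1.54 and Runx1 by 0.91. Trib2 was also the only gene of this list called between CML stem cells and normal HSCs. It was 1.82, 2.28 and 2.97 RPKM in LT-HSC replicates 1 and 2 and ST-HSCs and 0.299, 0.196 and 0.435 RPKM in LT-CML replicates 1 and 2 and ST-CML cells, and the groups did not overlap. The difference was -1.35 (SE 0.16, adjusted p = 0.00574 from limma), and -1.29 in LT cells (adjusted p = 0.018). In KLS- cells Trib2 was 4.78 RPKM in normal and 4.28 RPKM in CML mice. The median of the list was -0.25 between CML and normal stem cells and -0.27 between KLS- and stem cells.

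Of the other Kruppel-like factor genes (13 tested of 14), 1 rose in KLS- cells, Klf1 of the erythroid lineage by 2.21, and 6 fell, near the 48.7% of all genes called. Klf6 fell by 1.06, Klf12 by 1.28 and Klf10 by 1.34, where Klf4 had -0.41 and was not called. Between CML and normal stem cells limma called 0 of these 13, and the median was -0.13 against -0.04 over all genes, with 1 of the 13 above 0. The 2 with an unadjusted p under 0.05, named after their values were seen, were Klf6 (-0.72, SE 0.15, adjusted p = 0.0508 from limma) and Klf2 (-0.99, SE 0.30, adjusted p = 0.192). Of all genes tested, 1573 of 12561 had an unadjusted p under 0.05. Klf6 was 153.8 to 176.1 RPKM in normal HSCs and 86.3 to 115.6 RPKM in CML stem cells. Of 4 Myb relatives and coactivators 2 were called in KLS- cells, near the 48.7% of all genes. Mybl2, a cell cycle factor, rose by 1.26 and Crebbp, a histone acetyltransferase, fell by 0.75. Mybl2 fell by 0.82 from LT to ST cells, and limma called 0 of the 4 between CML and normal stem cells, with 0 at an unadjusted p under 0.05.

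In the MYC network (12 tested of 13), 2 genes rose and 4 fell in KLS- cells, close to the 22.2% and 26.5% of all genes. Fewer were called when either KLS- library was left out, which leaves 1 library of that cell type. Mlx, a Max-like partner, rose by 0.99, while Mxd1 and Mnt, which compete with Myc for Max, fell by 0.86 and 0.68, and Mga, a Max partner, fell by 0.53. Between ST and LT cells Mxd3 fell by 1.02. Between CML and normal stem cells limma called 0 of 12, with 0 at an unadjusted p under 0.05 and a median of -0.04, equal to that of all genes.

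The genes whose pattern over the 8 libraries was most like that of each member were ranked among 10033 genes with a mean of at least 1 RPKM, by Pearson's r of log2(RPKM + 1). These libraries share cell types, so high values are common, and r is given as a description. Sfpi1 and Myc were among each other's 3 most similar genes, with r = 0.977. Mycn was most like S100a5 (r = 0.989) and Pabpc4l (r = 0.987), which were at 1.86 to 4.52 RPKM in stem cells and 0.260 RPKM or lower in KLS- cells. Cebpe was most like Cldn15 (r = 0.988), F13a1, the A subunit of coagulation factor XIII, and Gsr, glutathione reductase. Klf4 was most like Irak1 (r = 0.984), an interleukin-1 receptor kinase, and Cebpa was most like Bex6 (r = 0.989), at 60.2 and 32.4 RPKM in normal and CML KLS- cells. Gfi1 was most like Tspan2 (r = 0.971), Myb like Trem1 (r = 0.951), Myc like Ccdc71 (r = 0.982) and Cebpb like Btg1 (r = 0.948). Cebpd was under the mean of 1 RPKM and was not ranked.

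Among the 10 genes themselves, Cebpd and Cebpe had r = 0.933, Cebpa and Cebpd r = 0.821, and Cebpa and Mycn r = -0.912 over the 8 libraries. Over the 8 libraries Cebpa had its 2 highest levels, and Mycn its 2 lowest, in the KLS- libraries. Both KLS- libraries lay outside the stem cell range for 6 of the 10 genes (Cebpa, Cebpd, Cebpe and Myc above, Cebpb and Mycn below) and for 49.6% of all genes tested.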

How the data were processed

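The authors sorted cells into an RNA extraction reagent, made oligo-dT primed libraries (SMARTer Ultra Low Input kit), sequenced paired ends on a HiSeq2000, mapped the reads to mm9 (NCBI Build 37) with SeqNova CS and deposited RPKM per gene. The gene annotation and counting rule are not given in the sources used here. The deposited RPKM are not counts, so no count model was fitted. Each library was grouped by its labels.

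The members and gene lists were chosen with earlier results of these data known. Every member is named, and from each list the called genes, at most 4 per comparison by adjusted p. Some other genes, such as Ela2 and Mpo, are given outside that rule. Genes with a total above 1 RPKM were compared on log2(RPKM + 1) with limma 3.58.1 in R 4.3.3 (eBayes with an intensity trend) and Benjamini-Hochberg adjustment, and members were also compared by an exact permutation test in scipy 1.17.1. The pooled fit used 6 libraries without a covariate. The others used all 8, with 1 mean per population for LT cells, and disease plus cell type for KLS- and ST cells. KLS- cells had 1 library per disease state, and the model treats them as replicates of the cell type. Fits were tested on simulated data.

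Depth and reads were estimated only to judge precision, from the step between low RPKM values. That step was whole for 87.6% of 4110 low genes and scaled by GENCODE M1 exon lengths on the same build. For Cebpd, Sfpi1 and Gfi1 the length was instead fitted so that reads were near whole numbers (tolerance 0.08 of a read). It was 2260, 1333 and 2862 bases against exon lengths of 1180, 2695 and 3249 bases. Counting errors cover sampling of reads only. Promoters are the 250 bases before the start in RefSeq's GRCm38.p6 table. Alternatives covered the pseudocount, the filter, the scaling, the trend, covariates, and each library left out in turn. The lists under other scalings or without single libraries were added after the data were seen.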

Additional observations from a re-analysis of the deposited data

Results flagged for a closer look

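Mycn differed in direction between cell types: the CML to normal log2 ratio was -0.43 in KLS- cells, with 1 library per disease state, whereas all 3 CML stem cell libraries lay above all 3 normal ones. The test of this difference in limma gave -1.05 (SE 0.44, unadjusted p = 0.0454, adjusted p = 1.0), so it did not pass the threshold. Both KLS- values were near 0, at 0.494 RPKM in normal and 0.368 RPKM in CML mice, an estimated 33 and 22 reads.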

How the results depend on the processing

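The number of the 10 genes called depended on the setting. For CML against normal stem cells it was 1 in the comparison as reported, 0 with no filter on low values, quantile normalization or upper-quartile scaling, and 2 with cell type as a covariate. Leaving out single libraries gave 0 to 0. Over all genes this fit called 294, and 173 with no filter, 543 with the covariate, 776 with all 8 libraries and 115 to 217 without single libraries. For LT cells the count was 0, or 1 (Klf4, adjusted p = 0.0353) at a mean of at least 1 RPKM. All genes called there numbered 217, and 0 with no filter, with 6 to 74 without single libraries. For KLS- against stem cells it was 8, with 6123 genes in all, but 4 with no filter and 5 without a disease term. Without single libraries it was at most 8 and was lowest without the normal KLS- library, a fit that leaves 1 KLS- library. The calls over all genes under these settings are not given here, so the lower counts are not read as particular to the 10 genes. For ST against LT cells it was 0, but 2 with quantile normalization (Sfpi1 and Myc), 1 with upper-quartile scaling, and 0 to 1 without single libraries, with 612 genes in all and 127 with no filter. For the disease difference between KLS- and stem cells it was 0 throughout, with 9 genes in all, or 151 with no filter. No direction is given for values that turned. Cebpe in LT cells went from -0.0033 to 0.082 with quantile normalization and to 0.0020 with upper-quartile scaling, and Myb in KLS- cells to -0.055 and the Klf4 disease difference between cell types to 0.00029 with quantile normalization. Without single libraries, the pooled difference of Cebpa ranged from -0.49 to 0.16 and that of Cebpd from -0.081 to 0.19. In LT cells the ranges were -0.15 to 0.38 for Cebpa, -0.14 to 0.40 for Cebpd and -0.65 to 0.64 for Cebpe, and between ST and LT cells -0.79 to 0.56 for Cebpe. The cause was not tested.

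No paired analysis was possible because nothing in the labels links a normal library to a CML library. The labels of the LT-HSC libraries give ages and not replicate numbers. Low members limit what depth can show: Cebpe and Cebpd rest on 0 to 41 reads in stem cells.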
